A study of Caenorhabditis elegans with 4 samples.

Results

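The regions described here are the JUN-1::GFP peaks of chromosome III, taken as every row of the authors' combined peak list that names this chromosome. They number 662 of 4152 peaks, or 15.9% of that list. The list of ChIP replicate 1 held 376 peaks on III and that of replicate 2 held 667. A peak of one list was counted as found in another when the peaks shared at least 1 bp.

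The data come from whole Caenorhabditis elegans hermaphrodites at L4, the last larval stage, grown at 20 °C and crosslinked with 2% formaldehyde. All 4 libraries, 2 of JUN-1::GFP ChIP and 2 of input DNA, are from strain OP234, which has the allele unc119(ed3) and the transgene wgIs234. The transgene was brought in by bombardment and holds T24H10.7:TY1 EGFP FLAG, a tagged copy of jun-1, beside unc119, the gene that is mutated in the host. Per the labels, the fusion protein follows the normal pattern of jun-1. Both groups therefore carry the transgene, and no library from worms without it was used. The RefSeq gene table (WBcel235 assembly) places unc-119 on chromosome III, and its position in the build of the peaks was not looked up, so whether any region below lies at it was not tested. The libraries were grouped by their titles. Their descriptions say the reverse, with input DNA written under the ChIP titles, and the peak lists are attached to the libraries titled ChIP. Nothing in the labels says that the replicates are separate worm cultures, and the input libraries have no file here, so no background level stands beside the peaks.

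JUN-1 is the worm relative of mammalian JUN. Proteins of this family hold DNA with a basic region and pair through a leucine zipper, as JUN does with FOS in the AP-1 complex, which acts in stress responses, wound responses and growth control in mammals. ChIP-seq in whole worms averages over all tissues, so a peak found in few cells and a weak peak found in many cannot be told apart. Worm chromosomes are holocentric, and their autosomes have a gene-rich centre between repeat-rich arms. Chromosome III also carries worm Hox genes, among them lin-39, ceh-13, mab-5 and egl-5, which pattern the body from head to tail. No gene is assigned to a peak here, as the peaks are in the WormBase WS180 build, for which no annotation was used, and no sequence is shown for the same reason.

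Peaks were called from 86377 to 13764026, a span of 13.7 Mb, and in the combined list they covered 325 kb of it, or 2.38%. The authors' q-value, the false discovery measure of their peak caller, ran from 1.98e-155 to 0.000305 in the combined list. In replicate 1 the smallest was 5.64e-83 and the largest 0.000226, and in replicate 2 they were 1.89e-156 and 0.000303. Strength is given below as −log10 q, so that a larger value means a smaller q. It was read only within a list, or as an order over peaks matched between the replicates, because q also depends on the sequencing depth, which is unknown. On chromosome III the combined list largely repeated replicate 2. Of its 662 peaks, 390 (58.9%) were copies of a replicate 2 peak in both ends and in q, and 0 were copies of any in replicate 1. Of 647 combined peaks matched one to one with replicate 2, 503 had the same q. The combined values are for this reason no evidence apart from replicate 2, and replicate 1 is the separate measurement of each region.

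About 1 in 2 of the chromosome III peaks had a counterpart in replicate 1, and nearly all had one in replicate 2. Of the 662 combined peaks, 350 (52.9%, exact 95% interval 49.0 to 56.7) overlapped a replicate 1 peak, against 42% of the combined peaks of all chromosomes. A replicate 2 peak overlapped 652 of them (98.5%, 97.2 to 99.3), against 97.9% over all chromosomes, so this share is that of the list as a whole. Both replicates overlapped 350 peaks, replicate 2 alone 302, and replicate 1 alone 0. The other 10 peaks overlapped neither list. All 10 were weak, with −log10 q between 3.52 and 4.90. The intervals cover counting error only and treat peaks as independent, although neighbouring peaks cluster.

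Chromosome III had the highest replicate 1 support of the 6 chromosomes, but its margin over the next was small. The share was 48.4% (44.5 to 52.2) on X, the next highest, and its interval overlapped that of III. It was lowest on I, at 24% (21.4 to 26.7). Chromosome I held the most combined peaks, 1034 of 4152, and so weighs most in the 42% over all chromosomes. The replicate 1 list itself was denser on III than elsewhere, with 27.5 peaks per Mb against 10.8 on II and 20.2 on X, the lowest and highest of the other chromosomes. In replicate 2, the 48.8 peaks per Mb on III came second to the 69.3 on I. These differences between chromosomes were not tested.

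Replicate 1 support followed the strength of a peak. Among the 166 strongest peaks of the chromosome (−log10 q of 10.29 and more), 161 had a replicate 1 partner (97%, 93.1 to 99). In the next 165 it was 121 (73.3%, 65.9 to 79.9). It was 48 of the 166 after these (28.9%, 22.2 to 36.4) and 20 of the 165 weakest (12.1%, 7.56 to 18.1). Each of the 50 strongest peaks and 99 of the 100 strongest were found in replicate 1. Peaks found in both replicates had a median −log10 q of 9.60, and those found in replicate 2 alone had 4.68. The read depth of each library is unknown, so a region missing from the shorter list may be unbound or undetected there, and these cannot be told apart.

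**Figure D1:**
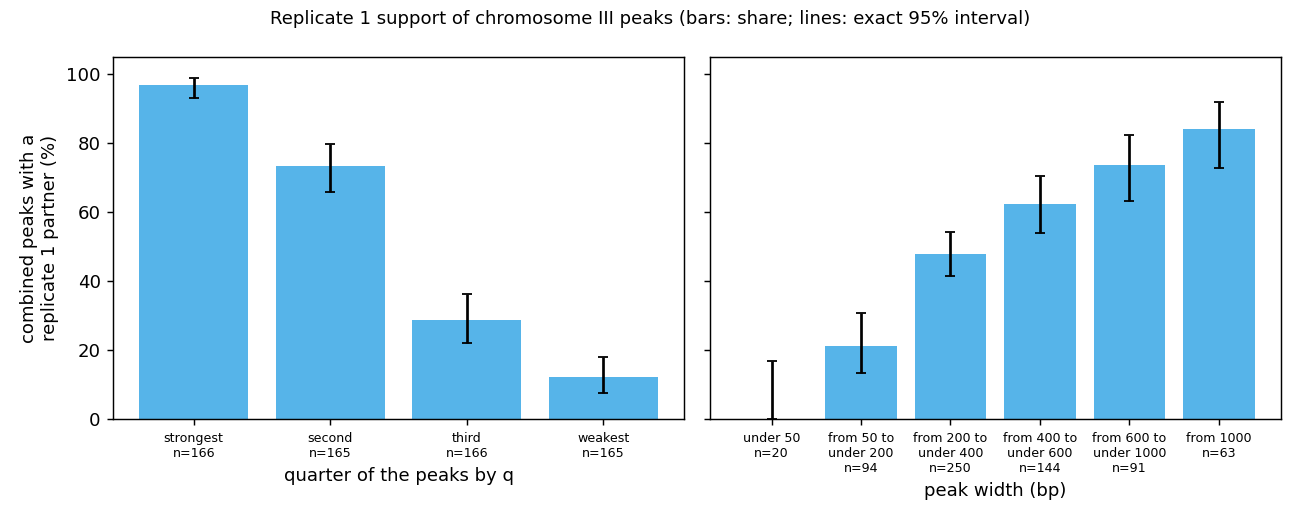
Share of combined chromosome III peaks that overlapped a replicate 1 peak, in percent, in 4 parts of the list by order of q (left) and by width class (right). Bars are shares and lines are exact 95% intervals. The share fell from 97% in the strongest part to 12.1% in the weakest, and rose from 0 of 20 peaks under 50 bp to 84.1% of peaks of 1000 bp and more.

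The strongest region of the chromosome lay near its left end, at 832802 to 837244, and was also the widest, at 4443 bp. Its −log10 q was 154.70 in the combined list, 82.25 in replicate 1 and 155.72 in replicate 2, and it stood first on III in all 3 lists. In replicate 1 it ran from 832814 to 836679, so its left end differed by 12 bp between the lists and its right end by 565 bp. The next region, 8864561 to 8868561 (4001 bp), had a combined −log10 q of 91.60. It was second on III in replicate 2 and only at place 27 of 376 in replicate 1, where it was called as 3 separate peaks, of which the best-matched had 18.48. Region 4193543 to 4195932, at place 6 in the combined list with 64.20, was likewise called as 3 pieces in replicate 1. Its best-matched piece stood at place 37 there with 15.55, and its strongest piece at place 33 with 16.92.

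Below these, the order was similar in both replicates. Region 8801300 to 8802825 was at place 3 on III in each list, at 68.77 combined and 37.56 in replicate 1. Region 13462517 to 13465440 had 66.78 and 30.55, region 4281581 to 4282680 had 65.08 and 35.38, and region 3867023 to 3868150 had 58.05 and 40.01. The last of these was the second strongest of replicate 1 on III. Of the 20 strongest combined peaks, all 20 had partners in both replicates, 16 were among the 20 strongest of replicate 1 on III and 19 among the 20 strongest of replicate 2. The 4 that were not in that part of the replicate 1 list include the 2 named above, the region 8794419 to 8796116 at place 31, which was called there as 2 pieces, and the region 13070204 to 13072327 at place 22.

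The strongest peaks differed widely in width, from 435 to 4443 bp. Of the 20 strongest, 12 spanned 1 kb or more and 3 were under 600 bp. The narrow ones were 10758910 to 10759413 (504 bp, −log10 q of 57.31 combined and 32.54 in replicate 1), 4475384 to 4475818 (435 bp, 49.13 and 28.35) and 7854390 to 7854831 (442 bp, 46.84 and 31.60). In replicate 1 they stood at places 5, 12 and 6 on III, with widths of 434, 429 and 472 bp. Their ends thus differed little between the replicates. The remaining strong regions started at 1924945, 598809, 4899210, 12612223, 12250117, 12904730, 9765273 and 1920784, with combined values from 52.58 down to 43.76 and replicate 1 values from 31.29 down to 21.09.

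Chromosome III supplied 21 of the 100 strongest combined peaks (21%, 13.5 to 30.3) and 21 of the 100 strongest of replicate 1, against 15.9% and 20.2% of all peaks in these lists. Among the 25 strongest it held 1 in each of the 3 lists. The chromosome thus contributed to the top 100 at about its share of the lists, with intervals that include that share.

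The median combined peak on III was 373 bp wide, with 246.5 and 575 bp as quartiles and a range from 1 to 4443 bp. The median was 341.5 bp in replicate 1 and 373 bp in replicate 2. On the other chromosomes, the combined median ran from 302 bp on I to 418 bp on X. Width rose with strength, with a Spearman's rho of 0.67 for the combined peaks and 0.69 in each replicate, given as a description across peaks. The 63 peaks of 1 kb or more (9.52%) held 30.3% of all covered bases and had a median −log10 q of 23.55, and 53 of them had a replicate 1 partner (84.1%, 72.7 to 92.1). The widest of the 10 without one were 3802766 to 3804487 (1722 bp, −log10 q of 8.43) and 5837923 to 5839428 (1506 bp, 8.49).

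**Figure D2:**
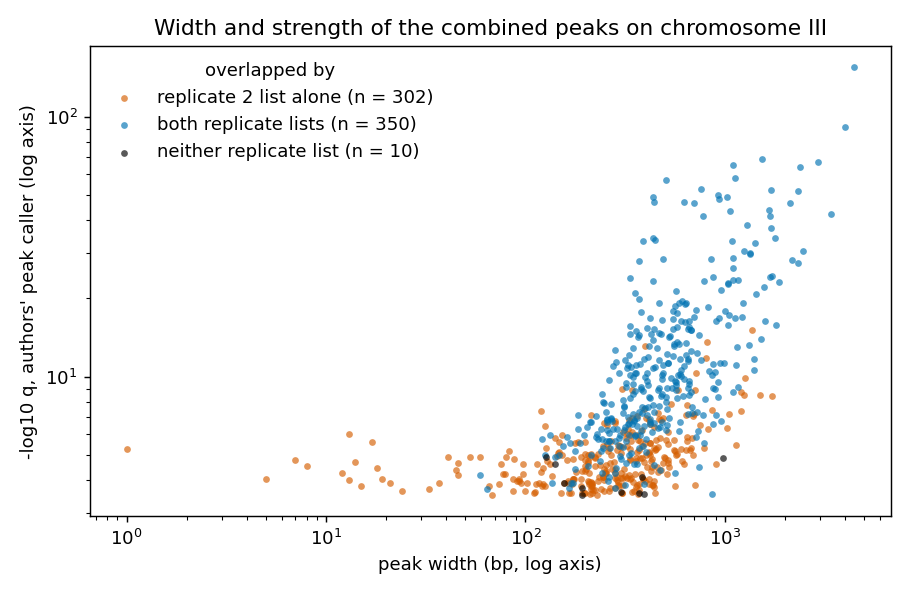
Width in bp against −log10 q for the 662 combined peaks on chromosome III, both on log axes, with 1 point per peak coloured by the replicate lists that overlap it. Peaks found in both replicate lists (n = 350) fill the upper right, and those found in replicate 2 alone (n = 302) lie low and reach down to 1 bp.

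The 10 widest peaks were all found in both replicates, but their extent was often smaller in replicate 1. After the 2 widest, named above, came 7735593 to 7739011 (3419 bp), 13462517 to 13465440 (2924 bp) and 10338329 to 10340792 (2464 bp). The first was called as 3 peaks in replicate 1, which covered 2741 bp together, and the best-matched replicate 1 peaks of the other 2 spanned 1627 and 1153 bp. Region 598809 to 601135 was the exception, at 2327 bp combined and 2330 bp in replicate 1. At 9824157 to 9826327, a peak of 2171 bp stood against 2 pieces in replicate 1 that covered 688 bp, from 9824470 to 9824669 and from 9825753 to 9826240, the latter at place 146. The 10 also include 4193543 to 4195932, whose 3 pieces in replicate 1 covered 1507 bp, 13745901 to 13748220 (2320 bp against 1002 bp) and 13070204 to 13072327 (2124 bp against 1277 bp).

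At the other end, 20 combined peaks on III were under 50 bp, and 1 of them, at 3474020, was a single base. All 20 overlapped a replicate 2 peak and 0 overlapped a replicate 1 peak, a count that allows a share of up to 16.8% by its exact interval. Their −log10 q lay between 3.63 and 6.01. Replicate 1 had 3 peaks of this size on III and replicate 2 had 32.

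Peaks matched between the replicates were ordered alike, and they were narrower in replicate 1. Over 351 pairs on III, Spearman's rho of −log10 q was 0.87 and that of width was 0.84. The points share a strain, a stage and a peak caller, and no p is given, since peaks are not replicates. On the other chromosomes the rho of −log10 q ran from 0.77 on V to 0.89 on X. The median width of the matched peaks was 341 bp in replicate 1 and 467 bp in replicate 2, and 324 of the 351 pairs (92.3%) were narrower in replicate 1. The median ratio was 0.795, with quartiles of 0.628 and 0.912.

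Most matched peaks had centres close together, and some did not. The replicate 1 peak lay wholly inside its replicate 2 partner in 271 pairs (77.2%), and the midpoints were at most 50 bp apart in 253 (72.1%), with a median distance of 25 bp and a 90th percentile of 197 bp. The distance was over 500 bp in 7 pairs, and at most 1066 bp. These pairs include regions that replicate 1 called in pieces, of which only the best-matched piece was paired. The largest distance was at 8864561 to 8868561, whose 3 replicate 1 pieces together ran from 8864664 to 8868463. At 4193542 to 4195937, also called as 3 pieces, it was 843.5 bp. Such a distance does not show that the centre of the region moved. The left end lay 34 bp further right in replicate 1 by the median, and the right end 37 bp further left. In 9 cases a replicate 2 peak overlapped 2 or 3 replicate 1 peaks, and in 0 cases did a replicate 1 peak overlap more than 1 peak of replicate 2. One of these is 11705027 to 11706809, where replicate 1 had peaks from 11705075 to 11705851 and from 11706195 to 11706721.

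**Figure D3:**
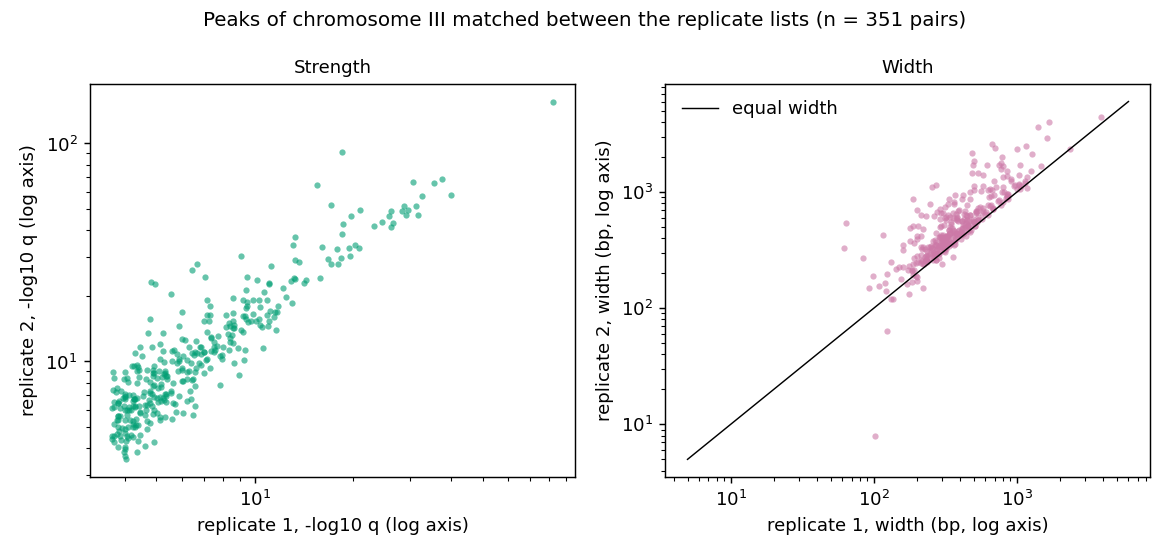
Strength as −log10 q (left) and width in bp (right) of the 351 pairs of chromosome III peaks matched between replicate 1 (horizontal) and replicate 2 (vertical), all on log axes. The pairs follow a common order in strength, with a rho of 0.87, and 324 of them lie above the line of equal width.

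A few regions kept their place in one replicate and not in the other. Region 5827712 to 5829572 had a −log10 q of 23.05 in replicate 2 and 4.81 in replicate 1, which put it at places 52 and 237 among the 351 matched peaks. There its width was 503 bp against 1861 bp. In the other direction, 9926641 to 9926925 had 6.46 in replicate 1 and 5.67 in replicate 2, at places 151 and 299 of the same 351. These examples were picked after their values were seen, as the pairs with large gaps in rank.

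Regions without a partner were weak in replicate 1. In replicate 2 they were mostly weak, with a median −log10 q of 4.67, but reached 15.16. Of the 376 replicate 1 peaks on III, 364 (96.8%, 94.5 to 98.3) were found in replicate 2, against 97.6% of all replicate 1 peaks. The 12 others had −log10 q of at most 5.25, the value of 11305751 to 11306110, and the next was 4.98 at 11191212 to 11191237, a peak of 26 bp. The other 10, the strongest 8 of which start at 9089468, 10331090, 11920200, 6415011, 9862826, 13606731, 11059659 and 6090019, lay between 4.22 and 3.65. In replicate 2, 351 of 667 peaks (52.6%, 48.8 to 56.5) were found in replicate 1, against 42.1% of all replicate 2 peaks. On the other chromosomes this share ran from 24.0% on I to 48.6% on IV. The strongest combined peaks with no replicate 1 partner were 2875628 to 2876994 (1367 bp, −log10 q of 15.16), 6422134 to 6422945 (812 bp, 13.55), 7973100 to 7973496 (397 bp, 13.17), 8291039 to 8291839 (801 bp, 11.85) and 6362147 to 6362861 (715 bp, 10.35). The first of these stood at place 96 of 662.

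Regions that both replicates called were also left out of the combined list, although rarely. Of the 364 replicate 1 peaks found in replicate 2, 2 had no combined peak. One was 9230965 to 9231124 in replicate 1 (−log10 q of 3.71) and 9231011 to 9231360 in replicate 2 (6.50). The other was 9191124 to 9191225 in replicate 1 (4.01), where replicate 2 had 8 bp from 9191171. Over all chromosomes, 4 of 1817 such peaks were left out. In all, 14 of the 376 replicate 1 peaks on III had no combined counterpart (3.72%, against 2.47% over all chromosomes), and 20 of the 667 of replicate 2 had none (3%, against 2.03%).

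Peaks were on average sparser in the first 3 Mb of the chromosome than in the rest. The combined list held 34, 36 and 29 peaks in the first 3 bins of 1 Mb, or 34.0 per Mb of called span, against 52.3 per Mb over the remaining 11 bins. Replicate 2 had 33.6 against 52.9 per Mb. Replicate 1 was also lower there on average, with 17, 26 and 18 peaks or 20.9 against 29.3 per Mb, but its bins showed no clear step. It had 22, 24 and 19 peaks in the bins from 3, 6 and 12 Mb, fewer than the 26 between 1 and 2 Mb. The limit of 3 Mb was chosen after the values were seen, and it has no test. The strongest region of the chromosome lies within this sparse stretch.

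Divided into equal parts, the span held 190 combined peaks in its left 33.3%, 236 in the centre and 236 on the right. The central share of the combined peaks was 35.6% (32.0 to 39.4). It was 35.9% (31.1 to 41.0) in replicate 1 and 36.0% (32.3 to 39.8) in replicate 2. An even spread would give 33.3%, which lies within all 3 intervals. The reading depends on the part taken, since the central 50% of the span held 56.9% of the combined peaks. That share is given without an interval, and an even spread would give 50%. The left part held 28.7% (25.3 to 32.3) of the combined peaks, 28.5% (23.9 to 33.3) of those of replicate 1 and 28.5% (25.1 to 32.1) of those of replicate 2. These intervals lie below an even spread, in replicate 1 only just, and they treat clustered peaks as independent. On the other chromosomes the combined central share ran from 35.2% on X to 47.5% on V, so III had the lowest of the autosomes, a difference that was not tested. Median −log10 q was 5.75 on the left, 6.39 in the centre and 6.21 on the right. Replicate 1 support was similar in the 3 parts, at 55.3% (47.9 to 62.5), 52.1% (45.5 to 58.6) and 51.7% (45.1 to 58.2).

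Among the bins of 1 Mb, the fewest combined peaks lay between 2 and 3 Mb, with 29, where replicate 1 had 18, next to its lowest count of 17 in the first, incomplete bin. The most lay between 9 and 10 Mb, with 60 combined and 36 in replicate 1. Per Mb the right end was densest in the combined list, since the last 0.764 Mb of called span held 47 peaks, or 61.5 per Mb. That end did not lead in replicate 1, where its 23 peaks gave 30.1 per Mb, below the 36 per Mb between 9 and 10 Mb. Over the 14 bins, replicate 1 and replicate 2 densities had a Spearman's rho of 0.80, given as a description. The ratio of replicate 1 to replicate 2 peaks ran from 0.431 between 3 and 4 Mb (22 against 51 peaks) to 0.703 between 1 and 2 Mb (26 against 37).

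**Figure D4:**
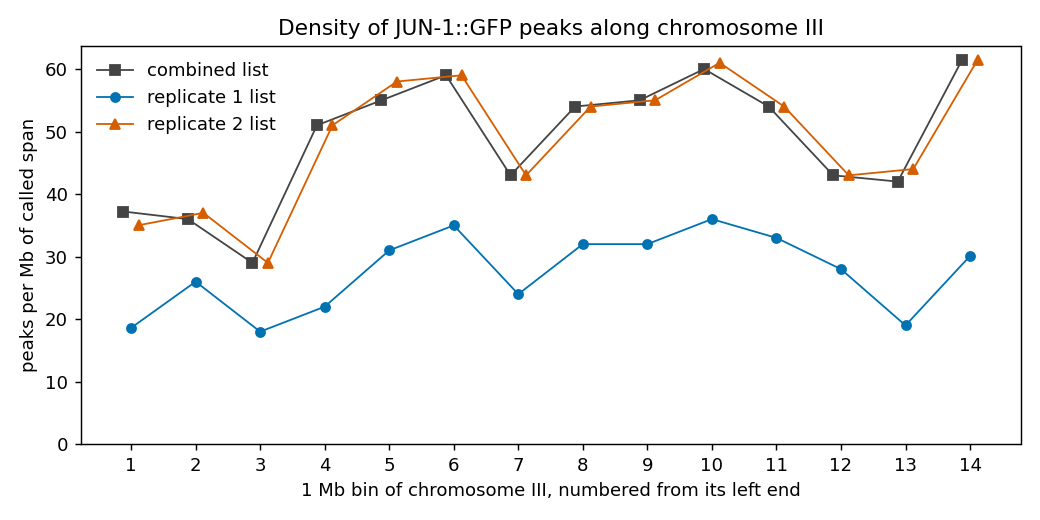
Peaks per Mb of called span in each 1 Mb bin of chromosome III, with bins numbered from the left end and 1 line for each of the 3 peak lists. The combined and replicate 2 lines nearly coincide, the 2 lowest values of each list lie in the first 3 bins, and replicate 1 lies below the other lists throughout.

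On a scale of 250 kb the counts spread more widely. The 54 complete bins held between 1 and 25 combined peaks, with a median of 11, and between 1 and 15 replicate 1 peaks, with a median of 6. None was empty in any of the 3 lists. The fullest bin, 13500001 to 13750000, had 25 peaks in the combined and replicate 2 lists and 9 in replicate 1. The bin 8750001 to 9000000, which holds 3 of the 10 strongest regions, had 22 combined and 15 replicate 1 peaks, whereas 3750001 to 4000000 also had 22 combined but 6 in replicate 1. The emptiest bin, 12000001 to 12250000, had 1 combined, 1 replicate 1 and 2 replicate 2 peaks.

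Many peaks stood in short rows. With gaps of at most 2000 bp allowed, 273 of the 662 combined peaks (41.2%, 37.5 to 45.1) fell into 108 clusters, of which 73 were pairs, 23 had 3 peaks and 12 had 4 or more. In replicate 1, 112 of 376 peaks (29.8%) fell into 49 clusters, and in replicate 2, 278 of 667 (41.7%) into 111. A list with fewer peaks has fewer close neighbours, so these shares depend on list length. On the other chromosomes the combined share ran from 27.6% on II to 48.5% on I. Replicate 1 support was alike with and without clustering, at 52.7% (46.6 to 58.8) of clustered and 53.0% (47.9 to 58.0) of single peaks. By the median, clustered peaks were stronger (−log10 q of 6.59 against 5.70) and wider (418 against 350 bp), and these shares were not adjusted for that. Broad peaks were more often clustered, with 45 of the 63 peaks of 1 kb or more in clusters (71.4%), and so were 13 of the 20 strongest.

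The cluster with the most peaks lay at 7728379 to 7739011, where 8 combined peaks covered 74.3% of 10.6 kb. Its right part was the wide region 7735593 to 7739011, with a −log10 q of 42.20, and the others lay between 3.57 and 15.77. The lists divided it differently. Replicate 2 had 4 peaks there, of 2603, 503, 1726 and 3610 bp, and replicate 1 had 7, of 340 to 1404 bp. The 1726 bp peak of replicate 2, with 12.17 in that list, corresponded to 3 combined peaks and to 0 in replicate 1.

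Of 4 clusters that tied at 5 peaks, the 3 longest were taken to complete the 5 largest, by the rule for named regions. In each of the other 4 so chosen, replicate 1 had 1 to 3 of the peaks, and these were the strongest of the row. At 10980973 to 10990053, 6 peaks held values of 6.31, 3.87, 11.29, 30.47, 5.12 and 41.52 from left to right, and replicate 1 had the 3 strongest, at 8.37, 19.64 and 26.25. At 3867023 to 3875057, 5 peaks fell from 58.05 and 19.14 at the left to 5.47, 5.57 and 3.85, and replicate 1 had the first pair. At 3796813 to 3804487, the peak of 38.44 had 4 neighbours between 3.63 and 8.72, and replicate 1 had that peak alone, at 18.56. At 13716276 to 13724353, replicate 1 had 1 of 5 peaks, the strongest, at 16.36 combined and 7.16 in replicate 1. The shortest of the tied clusters, 5501434 to 5506542, differed from these, as all 5 of its peaks were found in replicate 1, with a strongest combined value of 16.88.

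**Figure D5:**
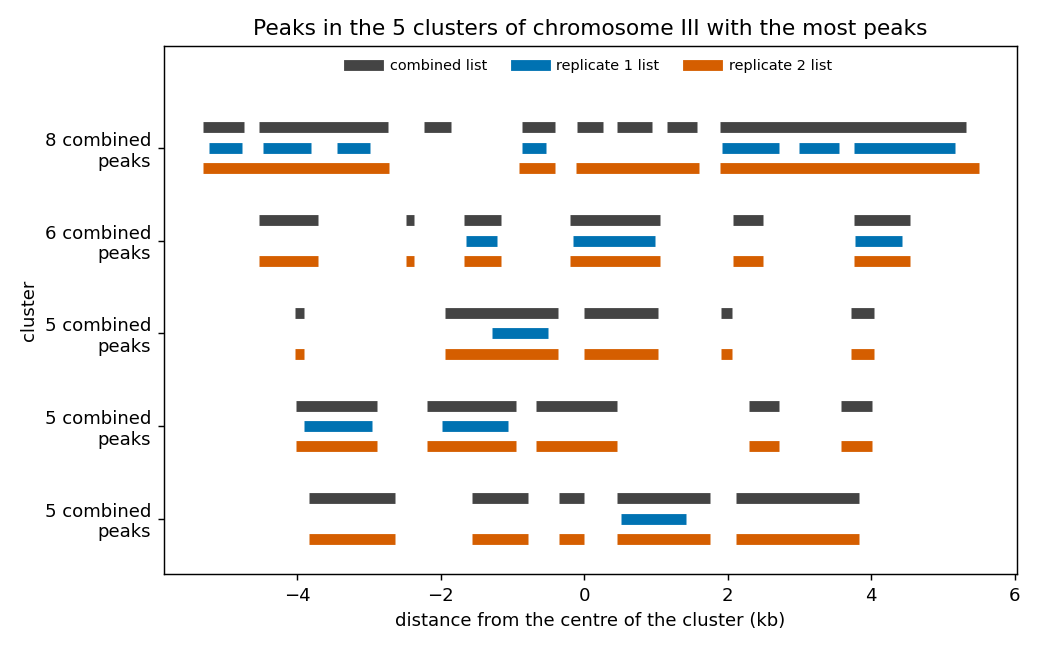
The 5 clusters of chromosome III with the most combined peaks (of 4 with 5 peaks each, the 3 longest), 1 per row group, as distance in kb from the centre of each cluster, with bars for the peaks of the combined, replicate 1 and replicate 2 lists. In the first cluster the 8 combined peaks correspond to 7 replicate 1 and 4 replicate 2 peaks, and in the other 4 the combined and replicate 2 peaks have the same number.

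Gaps between neighbouring combined peaks had a median of 8.22 kb, with quartiles of 2.01 and 28.2 kb. The median was 19.9 kb in replicate 1 and 8.31 kb in replicate 2. None was shorter than 200 bp, and 55 of the 661 combined gaps were at most 500 bp. Gaps of 100 kb or more numbered 13 in the combined list, 12 in replicate 2 and 31 in replicate 1. They made up 13.9%, 12.7% and 35.7% of the span.

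The longest gap ran from 12003564 to 12250116 (246.6 kb) and ended at one of the strong regions, 12250117 to 12251050, with a −log10 q of 48.20. Replicate 1 had no whole peak in it, and replicate 2 had 1, at 12058463 to 12058602 with 3.99, which the combined list lacked. The other 4 of the longest 5 held 0 whole peaks of either replicate. They were 2173621 to 2375942 (202.3 kb), 13072328 to 13256422 (184.1 kb), 2881346 to 3036094 (154.7 kb) and 1681512 to 1819113 (137.6 kb). Of these 5 gaps, 3 lay at least in part in the sparse first 3 Mb. The gap from 13072328 began at the strong, broad region 13070204 to 13072327. The longest combined gap of III was shorter than those of the other chromosomes except X, where it was 210.2 kb, and up to 692.2 kb on V. Whether JUN-1 is absent from these gaps was not tested.

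Combined peaks were also read in order along the chromosome, as runs with or without replicate 1 support. Runs arise in any order of peaks, and whether these were longer than in a random order was not tested. The longest run of neighbouring combined peaks found in replicate 1 had 13 peaks, from 1602800 to 1951895, with a largest −log10 q of 52.58, and the next had 10, from 4378440 to 4508591. The longest run without replicate 1 support had 8 peaks, from 3870361 to 3980674, and none of them exceeded 5.57. The longest supported run lay in the sparse first 3 Mb and the longest unsupported one outside it, but the next runs did not keep to this. The supported run of 10 peaks lay outside that stretch. The next unsupported runs had 6 peaks each, with 188529 to 344544 inside it and 7855561 to 7978504 outside. A link between density and support was not tested.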

How the data were processed

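The authors deposited 3 PeakSeq peak lists in WormBase WS180 positions, per the file headers, 1 for each ChIP replicate and 1 combined. Deposited q-values were turned into −log10 q and used only to describe or order peaks. The aligner, PeakSeq version, q limit, use of inputs and way of combining replicates are not given in the sources used, and depth is unknown.

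Peaks on III were compared by overlaps of at least 1 bp and matched one to one by shared bases. The called span was bounded by the outermost peak ends of the 3 lists. Peaks were binned by midpoint. Clusters were runs of peaks with gaps of at most 2000 bp. Shares carry exact (Clopper-Pearson) 95% intervals, for counting error only. No test was run, as peaks are not replicates and the ChIP libraries form 1 group. Named regions were the 20 strongest, the 10 widest, the 5 clusters with the most peaks, the 5 longest gaps, the 5 strongest without replicate 1, replicate 1 peaks without a partner, and extreme bins. Members, lists and rules were chosen with earlier results of these data known. Overlap, matching and clustering were checked on simulated lists. Python 3.11.15, numpy 2.4.6, pandas 2.3.3, scipy 1.17.1 and matplotlib 3.10.9 were used.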

Additional observations from a re-analysis of the deposited data

How the results depend on the processing

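Of 36 alternatives over 7 values, 20 stayed within the exact 95% interval of a share, an approximate 95% interval of rho, 1 SD between the replicate lists for the median width, or 1.5 times for the density. The share of combined chromosome III peaks found in replicate 1 moved from 52.9% to 45.3% when an overlap of 50% of both peaks was asked for, and to 85.2% among combined peaks of the better-ranked 50%. The share found in replicate 2 moved from 98.5% to 96.8% and 100% under the same settings. The density of 48.4 peaks per Mb became 24.3 in the better-ranked 50% and 25.6 among peaks with support in both replicates. It was 27.5 without replicate 2 and 48.8 without replicate 1. The better-ranked and doubly supported peaks are fewer by construction. The median width of 373 bp became 523 bp in the better-ranked 50% and 465.5 bp among peaks of both lists, and it was 341.5 bp without replicate 2 and 373 bp without replicate 1. The clustered share of 41.2% became 31.0% and 27.4% under these settings and, with gaps of at most 1000 or 5000 bp, 27.0% or 61.0%, and it was 29.8% without replicate 2 and 41.7% without replicate 1. The central share was 56.9% with the central 50% of the span, where an even spread would give 50%. With the central 33.3% it was 35.9% without replicate 2 and 36.0% without replicate 1. The rho of 0.87 stayed between 0.85 and 0.89. For the other moves the cause was not tested. No paired analysis was possible because the input libraries, which have the same replicate numbers as the ChIP libraries, have no file here. Whether a region missing from a list was unbound or undetected cannot be told apart without the read depth.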
